A study of Homo sapiens with 9 samples.

Results

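Guides against 10 regulators of canonical NF-kappaB signalling and of linear ubiquitin chains were followed through a pooled temozolomide screen. They were chosen by the target gene named for each guide, with TAB2, RIPK1, TRAF6, PELI1, PELI2, PELI3, RNF31, RBCK1, TNFAIP3 and TNIP2 as the targets. All 10 genes were in the count table, with 10 guides each, which gave 100 of its 11170 guides and 10 of its 1117 genes. The screen was run in U251, an established human glioma line, in cells that stably expressed single guide RNAs, and the DNA of the cells was sequenced to count the guides. Temozolomide is a DNA-alkylating drug used against glioma. Cells were exposed for 72 hours, and 3 libraries each, numbered 1 to 3, were made without drug (0 µM) and with 200 and 1500 µM, all of the same line with the same guide pool. The sample titles give these doses in µM and the treatment protocol gives them in nM, so the unit is not settled and µM is used as a name. Not given in the sources used here are the nuclease, the vector and whether the numbers mark separate cultures. P-values therefore reflect the spread among these libraries alone, and that spread may be technical. Guide counts hold no expression values, so the identity of the line could not be checked against markers, nor could the loss of any target protein.

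In this pathway, receptors for tumour necrosis factor, interleukin-1 and microbial ligands assemble complexes in which ubiquitin ligases build chains on adaptors and kinases. The chains recruit the kinases that free NF-kappaB, a family of transcription factors with many inflammatory and survival genes among its targets. Linear chains are made by one ligase complex, and enzymes that remove or edit chains act as brakes on the signal. In glioma the pathway is often studied for its part in survival after DNA damage.

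Levels are given as CPM, counts scaled to the same total in every library, for single guides or summed over the 10 guides of a gene. A level is therefore a share of the pool, and fewer cells with a guide cannot be told apart from more cells with other guides. Total counts were 1852340 to 2790563 per library, and a count of 0 allows up to 3 counts, or 1.08 to 1.62 CPM. No molecular identifiers are named, so floors and intervals cover counting error only. The 100 guides held 0.709 to 1.12% of the counts of a library. Between 2 and 10 of them were at 0 in a library, 77 were above 0 in every library, and 0 were at 0 in all 9. Tests across guides used those with at least 10 counts in at least 3 libraries, which kept 97 of the 100. TAB2.2, RIPK1.6 and RBCK1.3 did not pass, and they are named here after their values were seen. One guide outside the set, UBE2A.7, took 0.155 to 18.6% of a library's counts, with its 3 highest shares at 1500 µM, so CPM of all other guides depend on how a library's total is formed. Guides to one gene share their target and are not replicates, and guide sequences and cut positions were not used here. Within a gene, counts of guides lower or higher are signs of fold changes from fits that did not use the library numbers. They were not tested, and no share over all tested guides stands beside them.

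Replicate number, more than dose, went with the levels of these guides. In 55 of the 97 tested guides (56.7%), the 3 libraries of 1 replicate number lay above all other libraries, whatever the dose. The share over all tested guides was 49.3%. By contrast, 1 of 97 guides (1.03%, against 0.755% of all tested guides) had the 3 libraries of a dose above all others, which was TNFAIP3.1 with 200 µM on top. TNIP2.6 was the extreme among guides with enough counts to be tested, and it was picked after its values were seen. Its counts were 0, 3 and 509 in replicates 1, 2 and 3 without drug, 0, 0 and 643 with 200 µM and 3, 0 and 333 with 1500 µM. The guide was thus at or near 0 in every library of replicates 1 and 2, and abundant in all 3 of replicate 3. Of the variance of a gene's log2 summed level over the 9 libraries, replicate number held a median of 86.9% for the 10 genes and 78.2% for all 1117 genes, and dose held 8.45% and 7.27%.

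Comparison of 1500 with 0 µM asked which guides became scarcer or more abundant at the highest dose. No summed gene and no guide of the set passed the threshold. Over the 10 genes, log2 fold changes lay between -0.38 (TNFAIP3) and 0.16 (PELI1), with standard errors of 0.34 to 0.56, and edgeR's quasi-likelihood test with Benjamini-Hochberg adjustment over all 1117 genes gave an adjusted p of 1.00 for each. Over the whole table that test called 0% of genes and 0% of guides, although 3 genes and 21 guides had an unadjusted p under 0.05, 2 of these guides, PELI3.10 and TNIP2.10, from the set. The median of the 10 genes' log2 fold changes was -0.17 and 8 of 10 were negative, beside a median of -0.03 and 55.2% negative over all genes. The exact two-sided permutation test of each gene's summed log2 level cannot go below 0.1 with 3 against 3 libraries. It gave p of 0.5 or more for all 10, and in none were the doses separated. Neither test used the replicate numbers, so the spread between them counted as error. A dose difference smaller than that spread could hardly give a small p. Over all genes, 0.806% had the 3 libraries of 1 dose above all others.

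Pairing libraries by replicate number gave a more even picture. TNIP2, PELI3, RNF31, RBCK1 and TNFAIP3, which are 2 genes of the linear chain ligase, 1 Pellino ligase and both brakes, had a lower CPM at 1500 than at 0 µM in all 3 same-numbered pairs, and 0 of 10 genes were higher in all 3. The shares over all 1117 genes were 23.5% lower and 6% higher. Among guides, 16 of 97 were lower in all 3 pairs (11.6% of all tested guides) and 8 of 97 were higher (12.2%). These directions depend on the library total. After TMM scaling the same 5 genes were lower and 0 higher, against 29.9% and 6.36% of all genes. With UBE2A.7 left out of the totals, TNIP2, RNF31, RBCK1 and TNFAIP3 were lower and 0 higher, against 8.15% and 19.9% of all genes. The split of the guides was 17 lower and 7 higher after TMM scaling (12.6% and 12.2% of all tested guides). It turned to 11 lower and 13 higher with UBE2A.7 left out of the totals (7.62% and 18.5%).

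At 200 µM the picture differed between scalings. In CPM, TAB2, RIPK1, PELI1 and PELI2 were higher than at 0 µM in all 3 pairs and 0 of 10 genes were lower, against 19.9% higher and 8.68% lower over all genes. After TMM scaling 0 of 10 were higher, and PELI3, RNF31 and RBCK1 were lower in all 3 pairs, against 6.18% higher and 30.9% lower over all genes. Guides followed the CPM split, with 21 of 97 higher (15.5% of all tested guides) and 6 of 97 lower (8.46%) in all 3 pairs. After TMM scaling 13 were higher (10.1% of all tested guides) and 12 lower (13.9%). No gene or guide of the set passed edgeR's test, which called 0% of all genes and 0% of all guides, with 0 genes and 14 guides at an unadjusted p under 0.05. Gene log2 fold changes lay between -0.30 (TNFAIP3) and 0.24 (PELI2), 5 of them negative, with an adjusted p of 0.998 for each and a smallest exact permutation p of 0.5.

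Set against 200 µM, the 1500 µM libraries had lower CPM in all 3 pairs for TAB2, TNIP2, PELI2, PELI3, RBCK1 and TNFAIP3, and 0 of 10 genes were higher. Over all genes 32.8% were lower and 2.95% higher, so a large part of the table stood the same way. After TMM scaling TAB2, TNIP2, PELI2 and PELI3 were lower, against 15.8% of all genes, and 0 were higher, against 12.1%. Scaling on library totals alone set the median log2 fold change of all genes at -0.15 in this comparison, against -0.01 with TMM factors, and fold changes below are relative to the TMM scale. Guides were lower in all 3 pairs for 19 of 97 (16.5% of all tested guides) and higher for 7 of 97 (8.52%). After TMM scaling the guides were nearly even, with 13 lower (11.5% of all tested guides) and 12 higher (13.3%), and the counts were the same with UBE2A.7 left out of the totals. The edgeR test again called 0% of genes and 0% of guides, with 1 gene and 21 guides at an unadjusted p under 0.05. Its fold changes were negative for 9 of the 10 genes, from -0.30 (PELI2) to 0.067 (PELI1), with an adjusted p of 0.999 for each and a smallest exact permutation p of 0.2. A fit over the dose step, with the doses coded 0, 1 and 2, also called 0% of genes and 0% of guides, with 7 genes and 35 guides at an unadjusted p under 0.05.

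TAB2 is an adaptor that binds ubiquitin chains and activates the kinase TAK1. Its 10 guides summed to 1042, 1527 and 881 CPM without drug, 1387, 1627 and 987 CPM with 200 µM and 1054, 1209 and 958 CPM with 1500 µM, for replicates 1, 2 and 3. The means were 1149.6 ± 336 CPM without drug, 1334 ± 323 CPM with 200 µM and 1074 ± 127 CPM with 1500 µM (SD, n = 3 each), and replicate 2 was the highest library at each dose. TAB2 lay at the 82.5th percentile of genes by mean CPM, the highest of the 10. The edgeR log2 fold change was 0.010 ± 0.33 at 1500 against 0 µM, 0.15 ± 0.34 at 200 against 0 µM and -0.15 ± 0.30 at 1500 against 200 µM, each within its standard error. Mean CPM was highest at 200 µM and lowest at 1500 µM, with overlapping libraries at all doses. The fold changes, on the TMM scale, put 1500 µM nearly level with 0 µM. The tested guides of TAB2 were evenly divided at 1500 against 0 µM, with 4 lower and 5 higher and log2 fold changes from -0.71 to 0.091.

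The guide furthest from 0 in that comparison was TAB2.4, with 41.0, 54.1 and 46.4 CPM without drug, 57.5, 25.8 and 67.8 CPM with 200 µM and 36.6, 33.0 and 17.5 CPM with 1500 µM. It was lower at 1500 than at 0 µM in each pair, with a log2 fold change of -0.71 ± 0.76, and the ranges did not overlap. TAB2.4 was picked for its lowest p in this comparison, so that separation followed in part from the choice. TAB2.10, the most abundant on average, read 65.8, 249.9 and 396 CPM without drug, 94.7, 324 and 296 CPM with 200 µM and 45.9, 163 and 309.8 CPM with 1500 µM. It held 4.35 to 44.9% of the TAB2 counts of a library, highest in replicate 3 at 0 µM and lowest in replicate 1 at 1500 µM. It was also lower at 1500 than at 0 µM in every pair, at -0.47 ± 0.91. TAB2.7, the guide of lowest p at 200 against 0 µM, showed 48.0, 69.7 and 83.7 CPM without drug, 59.5, 75.3 and 173 CPM with 200 µM and 73.1, 40.9 and 109 CPM with 1500 µM, a log2 fold change of 0.43 ± 0.70 at 200 against 0 µM. All 3 pairs were higher at 200 µM there, and the groups overlapped.

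RIPK1 is the kinase and scaffold that carries ubiquitin chains in the tumour necrosis factor receptor complex and can direct a cell to survival or to death. Guides against it summed to 554, 1178 and 766 CPM without drug, 628, 1300.4 and 925 CPM with 200 µM and 642, 919.7 and 641 CPM with 1500 µM. Replicate 2 was the highest at every dose and the means were 833 ± 317 CPM without drug, 951 ± 337 CPM with 200 µM and 734 ± 161 CPM with 1500 µM (SD, n = 3 each). Relative to 0 µM the log2 fold change was -0.055 ± 0.37 at 1500 µM and 0.14 ± 0.40 at 200 µM, and it was -0.21 ± 0.36 at 1500 against 200 µM. The gene was higher at 200 than at 0 µM in all 3 pairs, by less than the spread between replicate numbers. At 1500 against 0 µM 5 of 9 tested guides were lower, with a median of -0.15 and a range of -0.70 to 0.52.

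RIPK1.4 set the low end, at -0.70 ± 0.66. Its levels were 113, 161 and 110.1 CPM without drug, 83.6, 183 and 151 CPM with 200 µM and 81.3, 104 and 52.6 CPM with 1500 µM. All 3 libraries at 1500 µM lay below all 3 at 0 µM, whereas the 200 µM libraries spanned both. RIPK1.4 had been picked for its lowest p at 1500 against 0 µM, and such a choice favours separated doses. RIPK1.5 dominated the sum, with 84.7, 609 and 323 CPM without drug, 99.1, 685 and 439 CPM with 200 µM and 142, 451 and 242 CPM with 1500 µM and 15.3 to 52.6% of the gene's counts. Its share was higher in every library of replicates 2 and 3 than in any of replicate 1. RIPK1.10, of lowest p at 200 against 0 µM, had 53.4, 71.9 and 45.3 CPM without drug, 42.5, 39.9 and 62.9 CPM with 200 µM and 65.9, 20.8 and 72.0 CPM with 1500 µM and a log2 fold change of -0.45 ± 0.70 at 200 against 0 µM, with the pairs split in direction. In RIPK1.3, replicate 1 held 137, 286 and 269 counts at 0, 200 and 1500 µM, and no other library held more than 51. This guide was picked after its values were seen.

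TRAF6 is the ligase that builds chains downstream of interleukin-1 and Toll-like receptors. It was the least abundant of the 10 genes, at the 18.4th percentile, with sums of 373, 394 and 836 CPM without drug, 313, 556 and 784 CPM with 200 µM and 342, 423 and 516 CPM with 1500 µM. Replicate 3 was highest at all doses. The means of 534 ± 261 CPM without drug, 551 ± 235 CPM with 200 µM and 427 ± 87.3 CPM with 1500 µM (SD, n = 3 each) were lowest at 1500 µM, where the replicate 3 library was the one further from its 0 and 200 µM counterparts. Log2 fold changes were -0.21 ± 0.39 at 1500 against 0 µM, 0.0093 ± 0.46 at 200 against 0 µM and -0.22 ± 0.39 at 1500 against 200 µM. At 1500 against 0 µM 7 of 10 guides were lower, with a median of -0.20. Only TRAF6.1, TRAF6.3 and TRAF6.4 were lower in all 3 pairs, and no TRAF6 guide was higher in all 3.

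TRAF6.4 had the lowest p of the gene in both comparisons with 0 µM, and its levels were 118, 26.8 and 59.9 CPM without drug, 33.4, 69.2 and 27.6 CPM with 200 µM and 61.6, 20.8 and 11.8 CPM with 1500 µM. It was lower at 1500 than at 0 µM in every pair, at -1.18 ± 0.95, with overlapping groups, and at 200 against 0 µM its fold change was -0.86 ± 0.86 with the pairs split. Without replicate 1 at 0 µM these were -0.38 and -0.053, in unblocked fits that kept replicate 1 at the other dose. TRAF6.2, the most abundant, gave 9.17, 68.0 and 262 CPM without drug, 72.5, 153 and 263 CPM with 200 µM and 50.2, 138 and 165 CPM with 1500 µM. It was higher at 200 than at 0 µM in each pair, hardly so in replicate 3, and its share of the gene's counts ran from 2.46 to 33.6%.

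TRAF6.1, named after its values were seen, stepped down over the doses in replicates 1 and 2. Its counts were 100, 114 and 343 without drug, 34, 45 and 575 with 200 µM and 13, 15 and 248 with 1500 µM. In CPM these were 54.0, 49.4 and 185 CPM without drug, 16.4, 22.7 and 233 CPM with 200 µM and 4.66, 5.90 and 117 CPM with 1500 µM. Replicate 3, several times more abundant, was higher at 200 than at 0 µM and lower at 1500 than at either. Without a block the log2 fold change at 1500 against 0 µM was -1.31 ± 1.26, and with the replicate block it was -2.41 ± 0.70 (edgeR, Benjamini-Hochberg adjusted p = 0.999), so it did not pass either way.

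The Pellino proteins are ubiquitin ligases that bind IRAK kinases, which act downstream of the same receptors as TRAF6. PELI1 guides summed to 995, 355 and 1329 CPM without drug, 1145, 421 and 1367 CPM with 200 µM and 1239, 364 and 1256 CPM with 1500 µM. Replicate 2 was the lowest at every dose, and replicate number held 98.4% of the variance of the log2 level, the highest of the 10 genes. Mean levels were 893 ± 495 CPM without drug, 978 ± 495 CPM with 200 µM and 953 ± 510.2 CPM with 1500 µM (SD, n = 3 each). PELI1 was the only 1 of the 10 whose mean was lowest at 0 µM and the only 1 with a positive log2 fold change in all 3 comparisons, with 0.16 ± 0.56 at 1500 against 0 µM, 0.079 ± 0.57 at 200 against 0 µM and 0.067 ± 0.53 at 1500 against 200 µM. In CPM its mean was lower at 1500 than at 200 µM, so the scales differed there. Its guides were higher in 7 of 10 at 1500 against 0 µM, with a median of 0.24. PELI1.5 and PELI1.7 were lower in all 3 pairs of that comparison, and no PELI1 guide was higher in all 3.

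PELI1.8 was the PELI1 guide of lowest p at 1500 against 0 µM, with 51.8, 86.2 and 160.3 CPM without drug, 149, 91.4 and 265 CPM with 200 µM and 135, 64.5 and 266 CPM with 1500 µM and a log2 fold change of 0.57 ± 0.71. Replicates 1 and 3 were higher at 1500 than at 0 µM and replicate 2 was lower. Without replicate 3 at 1500 µM the fold change was 0.076, in an unblocked fit that kept replicate 3 at 0 µM. PELI1.6, of lowest p at 200 against 0 µM, had 96, 2 and 52 counts without drug, 247, 8 and 330 with 200 µM and 332, 0 and 64 with 1500 µM. It was higher at 200 than at 0 µM in all 3 pairs, at 1.44 ± 1.51, and near or at 0 in each replicate 2 library. PELI1.5 was the most abundant, with 179, 66.7 and 478 CPM without drug, 115, 47.0 and 359 CPM with 200 µM and 148, 48.0 and 396 CPM with 1500 µM, and it was lower in every pair against 0 µM at both doses, unlike the gene's sum.

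PELI2 guides summed to 547, 1197 and 485 CPM without drug, 852, 1245 and 639.9 CPM with 200 µM and 626, 835 and 518 CPM with 1500 µM, again highest in replicate 2. The means were 743 ± 394 CPM without drug, 912 ± 307 CPM with 200 µM and 659.7 ± 161 CPM with 1500 µM (SD, n = 3 each). At 200 µM all 3 pairs were higher than at 0 µM, with a log2 fold change of 0.24 ± 0.44, and at 1500 µM all 3 were lower than at 200 µM, at -0.30 ± 0.36. The second was -0.015 without replicate 2 at 200 µM and -0.60 without replicate 2 at 1500 µM. Those fits had no block and kept the other replicate 2 library. With the replicate block and all libraries the fold changes were 0.31 ± 0.15 at 200 against 0 µM (edgeR, adjusted p = 0.811) and -0.30 ± 0.12 at 1500 against 200 µM (adjusted p = 0.665), so neither passed after Benjamini-Hochberg adjustment over all genes. At 1500 against 0 µM the fold change was -0.050 ± 0.43. There its guides stood on both sides. PELI2.7, which held 20.7 to 59.5% of the gene's counts, had 157, 712 and 203 CPM without drug, 184, 586 and 199.8 CPM with 200 µM and 140.5, 423 and 108 CPM with 1500 µM, lower at 1500 than at 0 µM in every pair, and without it the gene's fold change was 0.27 ± 0.35.

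PELI2.4, of lowest p in both comparisons with 0 µM, stood the other way. Its levels were 16.7, 21.7 and 39.4 CPM without drug, 82.2, 59.1 and 47.9 CPM with 200 µM and 57.3, 39.3 and 59.2 CPM with 1500 µM. All 3 pairs were higher at 200 and at 1500 µM, with log2 fold changes of 0.98 ± 0.73 at 1500 against 0 µM and 1.14 ± 0.77 at 200 against 0 µM. The 3 libraries at 200 µM lay above all 3 at 0 µM, and those at 1500 µM overlapped them only just, at replicate 2. Choice of the guide by its p favours such a separation.

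PELI3 guides summed to 1759, 873 and 915 CPM without drug, 1476, 917 and 796 CPM with 200 µM and 1319, 766 and 760.2 CPM with 1500 µM. Replicate 1 was the highest at every dose. The means were lower at each higher dose on this scale, with 1183 ± 499.9 CPM without drug, 1063 ± 363 CPM with 200 µM and 948 ± 321 CPM with 1500 µM (SD, n = 3 each), and 1500 µM was lower than 0 µM in all 3 pairs. The log2 fold change was -0.24 ± 0.41 at 1500 against 0 µM, -0.23 ± 0.41 at 200 against 0 µM and -0.021 ± 0.35 at 1500 against 200 µM, so on the TMM scale 1500 and 200 µM were nearly level. The exact permutation p was 0.5 at 1500 against 0 µM.

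In replicate 1, PELI3.10 alone differed between 1500 and 0 µM by more CPM than the gene's sum did. Its counts were 1196, 63 and 39 without drug, 96, 39 and 58 with 200 µM and 99, 20 and 8 with 1500 µM, for replicates 1, 2 and 3. In replicate 1 it held 36.7% (exact 95% interval 35.0 to 38.4%) of the gene's counts at 0 µM, 3.14% (exact 95% interval 2.55 to 3.83%) at 200 µM and 2.69% (exact 95% interval 2.19 to 3.26%) at 1500 µM. Its CPM at 1500 µM were 35.5, 7.86 and 3.79, against 645, 27.3 and 21.1 at 0 µM. Every pair was lower at 1500 µM, by 18.2-fold, 3.47-fold and 5.56-fold in replicates 1, 2 and 3.

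The edgeR log2 fold change of PELI3.10 at 1500 against 0 µM was -4.03 ± 1.67 (adjusted p = 1.000). In DESeq2 with the replicate block, 1 of the alternatives tried, the guide fell by 2.92 ± 0.65 on the log2 scale (Benjamini-Hochberg adjusted p = 0.0137) and was 1 of 6 guides called, 0.058% of all. In the dose-step fit of that setting it fell by 1.55 ± 0.37 per step (adjusted p = 0.0467), with 0.058% of guides called. Without the block, DESeq2 gave this guide no p-value over the step or at 1500 against 0 µM, where its fold change was -4.05 ± 1.43. With the block in edgeR the value at 1500 against 0 µM was -2.96 ± 0.61 (adjusted p = 0.999), which did not pass. Without replicate 1 at 0 µM the unblocked fold change was -0.62, in a fit that kept replicate 1 at 1500 µM without its partner. The size of the unblocked value thus depended on that library. The blocked values, -2.92 and -2.96, compare within pairs, and replicates 2 and 3 were each lower at 1500 µM as well. The other guides of PELI3 had log2 fold changes up to 1.70. PELI3.3, the most abundant, read 560.2, 92.7 and 219 CPM without drug, 789.9, 89.4 and 244 CPM with 200 µM and 492, 93.9 and 242 CPM with 1500 µM, with a fold change of -0.21 ± 0.97 at 1500 against 0 µM and no common direction over the pairs.

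RNF31, also called HOIP, is the catalytic subunit of the complex that makes linear ubiquitin chains. Its guides summed to 1716, 1118 and 778 CPM without drug, 1779.8, 882 and 629.8 CPM with 200 µM and 1488, 703 and 666 CPM with 1500 µM, in the order replicate 1, 2, 3 at each dose. Means were 1204 ± 475 CPM without drug, 1097 ± 605 CPM with 200 µM and 952 ± 464 CPM with 1500 µM (SD, n = 3 each). All 3 pairs were lower at 1500 than at 0 µM, and the spread between replicate numbers was larger than this difference. The log2 fold change was -0.26 ± 0.45 at 1500 against 0 µM, -0.22 ± 0.47 at 200 against 0 µM and -0.062 ± 0.47 at 1500 against 200 µM. With the replicate block the first was -0.27 ± 0.15 (edgeR, adjusted p = 0.810) and the change per dose step was -0.13 ± 0.062 (adjusted p = 0.501), neither past the threshold. Of its 10 guides, 9 were lower at 200 against 0 µM and 7 at 1500 against 0 µM by the fold change without a block, with a median of -0.33 in both. In pairs, RNF31.10 and RNF31.4 were the only ones lower in all 3 at 200 against 0 µM, and RNF31.6 was higher in all 3. At 1500 against 0 µM only RNF31.2 was lower in all 3 pairs, and RNF31.6 was higher in all 3.

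RNF31.3, the most abundant guide and that of lowest p at 1500 against 0 µM, had 128, 384 and 416 CPM without drug, 315, 240.0 and 259 CPM with 200 µM and 147, 203 and 274 CPM with 1500 µM. Replicates 2 and 3 were lower at both doses than at 0 µM and replicate 1 was higher, and the fold change was -0.59 ± 0.74 at 1500 against 0 µM. RNF31.5, of lowest p at 200 against 0 µM, had 646, 6 and 38 counts without drug, 334, 14 and 96 with 200 µM and 831, 22 and 38 with 1500 µM. Its fold change of -1.16 ± 1.70 at 200 against 0 µM lay in replicate 1, and it was 0.094 ± 0.61 with the replicate block. RNF31.2, named after its values were seen, was lower at 1500 than at both other doses in every pair, with 565, 181 and 95.0 CPM without drug, 527, 172 and 108 CPM with 200 µM and 373, 102 and 45.5 CPM with 1500 µM. Its fold change at 1500 against 0 µM with the replicate block was -0.87 ± 0.29 (edgeR, adjusted p = 0.999).

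RBCK1 encodes the HOIP partner that also belongs to the linear chain complex. Guides against it summed to 1076, 1237 and 696 CPM without drug, 1223, 1079 and 675 CPM with 200 µM and 955, 1005 and 584 CPM with 1500 µM, with replicate 3 lowest at every dose. The means were 1003 ± 278 CPM without drug, 992 ± 284 CPM with 200 µM and 848 ± 229.8 CPM with 1500 µM (SD, n = 3 each). As for RNF31, all 3 pairs were lower at 1500 than at 0 µM, by less than the spread of a dose. Log2 fold changes were -0.13 ± 0.38 at 1500 against 0 µM, -0.084 ± 0.36 at 200 against 0 µM and -0.058 ± 0.36 at 1500 against 200 µM. Of 9 tested guides, 7 were lower at 1500 against 0 µM, with a median of -0.24 and a range of -1.29 to 0.33. RBCK1.2 and RBCK1.5 were the only ones lower in all 3 pairs, and no RBCK1 guide was higher in all 3.

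RBCK1.2, the most abundant, had 220.2, 614 and 201 CPM without drug, 199, 447 and 106 CPM with 200 µM and 188, 509 and 169 CPM with 1500 µM. It was lower than at 0 µM in each pair at both doses, with -0.24 ± 0.93 at 1500 µM and -0.66 ± 0.92 at 200 µM. RBCK1.8 had the lowest p at 1500 against 0 µM, with 10.8, 68.0 and 18.9 CPM without drug, 38.7, 37.9 and 26.4 CPM with 200 µM and 6.09, 27.1 and 23.2 CPM with 1500 µM and a fold change of -0.83 ± 1.11, and its pairs were split. RBCK1.9, of lowest p at 200 against 0 µM, was higher there in every pair, with 16.7, 47.2 and 83.1 CPM without drug, 83.6, 60.6 and 124 CPM with 200 µM and 50.2, 48.0 and 82.9 CPM with 1500 µM and a fold change of 0.74 ± 0.77. At 200 against 0 µM, RBCK1.2 was thus lower in all 3 pairs and RBCK1.6 and RBCK1.9 were higher in all 3, while the pairs of the other tested guides of the gene were split.

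TNFAIP3 is the ubiquitin-editing enzyme that removes activating chains and is itself induced by NF-kappaB. Its guides summed to 2046, 832 and 705 CPM without drug, 1501, 797 and 797 CPM with 200 µM and 1481, 515 and 648 CPM with 1500 µM. Replicate 1 was far above the others at each dose, and replicate 1 at 0 µM was the highest sum of any of the 10 genes in any library. Means were 1194 ± 741 CPM without drug, 1031 ± 407 CPM with 200 µM and 881 ± 523 CPM with 1500 µM (SD, n = 3 each). The log2 fold change at 1500 against 0 µM, -0.38 ± 0.55 (edgeR, adjusted p = 1.000), was the lowest of the 10 genes, and all 3 pairs were lower. It was -0.30 ± 0.50 at 200 against 0 µM, -0.093 ± 0.45 at 1500 against 200 µM and -0.19 ± 0.25 per dose step. With the replicate block the first was -0.33 ± 0.16 (adjusted p = 0.759) and the dose step -0.17 ± 0.072 (adjusted p = 0.454). Without replicate 1 at 0 µM the unblocked fold change at 1500 against 0 µM was 0.32, in a fit that kept replicate 1 at 1500 µM without its partner.

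TNFAIP3.9 was the most abundant TNFAIP3 guide of replicate 1 at 0 µM. Its counts were 1262, 34 and 27 without drug, 287, 21 and 26 with 200 µM and 767, 90 and 51 with 1500 µM. In replicate 1 it held 33.3% (exact 95% interval 31.8 to 34.8%) of the gene's counts at 0 µM, 9.24% (exact 95% interval 8.25 to 10.3%) at 200 µM and 18.6% (exact 95% interval 17.4 to 19.8%) at 1500 µM. At 1500 against 200 µM it was higher in all 3 pairs, by 1.98-fold, 3.33-fold and 2.29-fold, and the edgeR log2 fold change was 1.21 ± 1.36 (adjusted p = 1.000). In DESeq2 with the replicate block it rose by 1.39 ± 0.36 on the log2 scale (Benjamini-Hochberg adjusted p = 0.0416), and that setting called 0.873% of the 4926 guides it adjusted. Without replicate 1 at 1500 µM the unblocked fold change was -0.64, and without replicate 1 at 200 µM it was 3.52. Each of these fits kept the other replicate 1 library. At 200 against 0 µM the same guide was lower in all 3 pairs, so its level had no single direction over the doses.

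TNFAIP3.10, of lowest p at 1500 against 0 µM, had 22, 263 and 55 counts without drug, 56, 34 and 46 with 200 µM and 43, 38 and 49 with 1500 µM. Its fold change of -1.63 ± 1.02 was -0.19 without replicate 2 at 0 µM, its highest library. That unblocked fit kept replicate 2 at 1500 µM. Replicate 1 was higher at 1500 than at 0 µM. TNFAIP3.1, of lowest p at 200 against 0 µM, had 7.56, 30.3 and 10.3 CPM without drug, 50.8, 61.6 and 46.3 CPM with 200 µM and 25.4, 7.47 and 25.1 CPM with 1500 µM. It was higher at 200 than at both other doses in every pair, with 1.51 ± 0.95 at 200 against 0 µM. TNFAIP3.6, the most abundant, read 507, 120.4 and 161 CPM without drug, 239, 137 and 205 CPM with 200 µM and 258, 75.5 and 88.1 CPM with 1500 µM, lower at 1500 than at 0 µM in every pair, at -1.02 ± 0.90. No TNFAIP3 guide was at 0 in any library, the only 1 of the 10 genes of which this held.

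TNIP2 encodes a protein that binds TNFAIP3 and acts as an inhibitor of NF-kappaB. Its guides summed to 1084, 492 and 629 CPM without drug, 915, 515 and 680.1 CPM with 200 µM and 822, 395 and 538 CPM with 1500 µM, with replicate 1 highest throughout. Mean levels were 735 ± 309.6 CPM without drug, 703 ± 201 CPM with 200 µM and 585 ± 218 CPM with 1500 µM (SD, n = 3 each). At 1500 µM all 3 pairs were lower than at 0 µM, and all 3 were lower than at 200 µM. Log2 fold changes were -0.26 ± 0.42 at 1500 against 0 µM, -0.14 ± 0.40 at 200 against 0 µM and -0.13 ± 0.35 at 1500 against 200 µM. The first was 0.042 ± 0.39 without TNIP2.9, so its direction rested on that guide. TNIP2.9 was the most abundant and had the lowest p at 200 against 0 µM, with 731, 191 and 85.3 CPM without drug, 448, 206 and 48.7 CPM with 200 µM and 341, 169 and 81.0 CPM with 1500 µM and a fold change of -0.80 ± 1.16. In replicate 1 it held 41.4% (exact 95% interval 39.4 to 43.5%) of the gene's counts at 1500 µM, against 67.4% (exact 95% interval 65.3 to 69.5%) at 0 µM.

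TNIP2.10 was the guide of the set that was lost at the highest dose. It had 18, 24 and 31 counts without drug, 26, 0 and 25 with 200 µM and 0, 0 and 0 with 1500 µM. It was thus at 0 in all 3 libraries at 1500 µM and in replicate 2 at 200 µM. With the floor of 3 counts per library at 1500 µM, the guide was at least 10.02-fold lower there than its mean of 12.3 ± 3.87 CPM at 0 µM (SD, n = 3). The Benjamini-Hochberg adjusted p in edgeR was 1.000, so the guide did not pass. Of the 77 guides of the set with at least 10 counts in each library at 0 µM, TNIP2.10 was the only 1 at 0 in all 3 at 1500 µM, against 0.0262% (2 of 7637) over the whole table. The other TNIP2 guides had log2 fold changes up to 0.81 and 4 of 10 were higher, so the loss was not shared by the gene.

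Beside these 10 genes, 51 other genes of the same signalling routes were listed, of which 30 were targets in the table. Measured ones comprised 2 of 15 adaptors and kinases, all 9 TRAF and IAP ligases, all 8 proteins that conjugate chains, all 6 of the inhibitor NFKBIA and the ligase subunits that degrade it, 1 of 5 transcription factors and 4 of 8 brakes. In edgeR without a block 0 of 30 passed in the 3 pairs of doses or over the dose step, and 0 had an unadjusted p under 0.05 in the pairs and 1 over the step. With the replicate block 0 of 30 passed in the pairs, where 4 at 1500 against 0 µM, 2 at 200 against 0 µM and 4 at 1500 against 200 µM had an unadjusted p under 0.05, and TRAF3 passed over the dose step, where edgeR called 0.0895% of all genes. DESeq2 with that block called 1 of 30 at 1500 against 0 µM (0.269% of all genes) and 0 at 200 against 0 µM (0.0895%). At 1500 against 200 µM it called 4 of the 27 listed genes with an adjusted p (2.55% of 943 genes). Over the dose step it called 1 of 30 (1.37% of 1095 genes). The median log2 fold change of the 30 was -0.081 at 1500 against 0 µM beside -0.026 over all genes, -0.031 beside -0.033 at 200 against 0 µM, and -0.14 beside -0.012 at 1500 against 200 µM. In CPM, 8 of 30 were lower and 0 higher in all 3 pairs at 1500 against 0 µM, beside the 23.5% and 6% of all genes. At 200 against 0 µM 4 were lower and 6 higher, beside 8.68% and 19.9%, and at 1500 against 200 µM 18 were lower and 1 higher, beside 32.8% and 2.95%. After TMM scaling the counts lower and higher were 14 and 1 (29.9% and 6.36% of all genes), 9 and 2 (30.9% and 6.18%), and 12 and 2 (15.8% and 12.1%) in these comparisons in turn. With UBE2A.7 left out of the totals they were 5 and 4 (8.15% and 19.9%), 4 and 7 (8.15% and 20.9%), and 13 and 3 (15.2% and 12.4%). SHARPIN, the third subunit of the linear chain complex, is named after its values were seen. It was among the 18 and stayed lower in all 3 pairs under both other scalings. Other genes of the list did the same, among them IKBKG, TRAF3 and BIRC2. In that comparison RBCK1 was lower in all 3 pairs in CPM only, and RNF31 under none of the scalings. Each pair of these comparisons shares the libraries of 1 dose.

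TRAF3, which restrains the noncanonical branch of the pathway, had the lowest p of the list at 1500 against 0 µM. Its guides summed to 771, 1219.6 and 781 CPM at 1500 µM, against 1743, 3139.8 and 1110.5 CPM at 0 µM, lower in every pair, with a log2 fold change of -0.995 ± 0.47 (edgeR, adjusted p = 1.000, and 0.0786 with the replicate block). Over the dose step TRAF3 fell by 0.46 ± 0.070 on the log2 scale per step with the replicate block (edgeR, adjusted p = 0.00496). DESeq2 with the block called it lower as well, with an adjusted p of 0.000338 at 1500 against 0 µM, 0.00133 at 1500 against 200 µM and 1.73e-07 over the step. Without the block its fold change was -0.50 ± 0.51 at 200 against 0 µM and -0.51 ± 0.42 at 1500 against 200 µM. BIRC2, a ligase that puts chains on RIPK1, summed to 1375, 1455 and 1358 CPM at 1500 µM, against 2154, 2695 and 1453 CPM at 0 µM, at -0.49 ± 0.36. At 1500 against 200 µM its fold change was -0.46 ± 0.26, and every pair was lower in both comparisons. DESeq2 with the block called that second difference, at -0.46 ± 0.084 with an adjusted p of 2.99e-05. XIAP, another inhibitor of apoptosis, summed to 893, 1353 and 1957 CPM at 1500 µM, against 25388, 763 and 556 CPM at 0 µM. Its fold change of -2.65 ± 1.38 rested on replicate 1 at 0 µM and was -0.020 with the replicate block. At 200 against 0 µM it was -3.23 ± 1.44, with sums of 768, 803 and 1518 CPM at 200 µM, lower than at 0 µM in replicate 1 only. With the replicate block that value was -0.76 (edgeR, adjusted p = 0.913). At 1500 against 200 µM the fold change of XIAP was 0.58 ± 0.39 with every pair higher. DESeq2 with the block called it there, at 0.57 ± 0.12 with an adjusted p of 0.00133. BTRC, which targets the inhibitor of NF-kappaB for degradation, was the third by p at 200 against 0 µM, at 0.32 ± 0.33, and DESeq2 with the block called it lower at 1500 against 200 µM, at -0.35 ± 0.091 with an adjusted p of 0.0182.

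Likeness between genes was measured as the root mean square difference of log2(CPM + 1) sums over the 9 libraries after each gene was centred on its mean, with no test. The 9 libraries hold 3 replicate numbers, so genes that look alike mostly share their order of replicates. Nearest to TAB2 was COMMD1 (0.0944), then UHRF2 (0.0968) and ASB1 (0.11). RIPK1 was nearest to KLHL18 (0.129), WDR53 (0.137) and RFPL2 (0.143), and TRAF6 to TAF12 (0.172), MID1 (0.202) and UBQLN4 (0.207). For the Pellino ligases the nearest were UBXN2B (0.189), HPRT1 (0.196) and DET1 (0.203) for PELI1, TXNIP (0.153), KAT6B (0.155) and ASB12 (0.172) for PELI2, and FBXO48 (0.142), FBXO45 (0.147) and TRAF2 (0.167) for PELI3. In the linear chain complex RNF31 was nearest to UBE2C (0.147), SLC22A18 (0.160) and PRKAR2B (0.164), and RBCK1 to SMAD3 (0.0857), PSMB10 (0.135) and FBXO24 (0.135). Among the brakes TNFAIP3 was nearest to WHSC1 (0.173), WDTC1 (0.182) and TADA2B (0.183), and TNIP2 to KBTBD6 (0.0918), TRIM41 (0.115) and FAN1 (0.119). The median distance to all genes was 0.50 for TAB2 and 0.85 for PELI1, the lowest and highest of the 10. Within the set the closest were TAB2 and PELI2 at 0.20, TNIP2 and PELI3 at 0.204, and PELI3 and RNF31 at 0.223, whereas RNF31 and RBCK1, of 1 complex, stood at 0.401. TRAF2 is the one gene of the signalling list among these neighbours.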

How the data were processed

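The deposited data are raw counts per guide, in 1 table for the whole series that the authors made. Per the submitters' processing notes, cutadapt 1.18 and MAGeCK 0.5.8 were used and hg19 was named. Not given in the sources used here are mismatch settings and filters. Counts were used unchanged. CPM are counts divided by a library's total and scaled to a common total.

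Guides that reached 10 counts in 3 or more of 9 libraries (10337 of 11170), and counts summed over the 10 guides of each of 1117 genes, were tested with edgeR 4.0.16 (quasi-likelihood test, TMM factors, robust fit, R 4.3.3) on the 6 libraries of each pair of doses without a block, and over the dose step. P-values were two-sided and adjusted by the Benjamini-Hochberg method over the whole table, with a threshold of 0.05. Standard errors were derived from fold change and F statistic, and are approximate near 0 counts. Summed levels, as log2(CPM + 1), were tested by exact permutation, two-sided. Intervals of shares are exact Clopper-Pearson 95% intervals. The fitting steps were tested on simulated data with planted changes larger than those of the 10 genes. That test does not bear on the power to find changes as small as theirs.

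Across guides, the deviations of same-numbered libraries from their dose means correlated at 0.66 to 0.78 in 9 pairs. All were above 0.1, so replicate numbers were treated as pairing the libraries in the counts of same-numbered pairs and in the block. This pairing comes from the data and the titles' numbers. The main edgeR fits and the permutation test left it out, so the spread between replicate numbers counted as error there. Alternatives were the replicate block, DESeq2 1.42.0 with and without it, other scalings and filters, 1 fit of all doses, a fit without the robust option, each library left out, and other ways to join a gene's guides.

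The members, the list of signalling genes and the rules were chosen with earlier results of these data known. All 10 genes are named. For each gene, the guides of lowest p at 1500 and at 200 against 0 µM, the most abundant guide and any guide past a threshold under any setting are given in full, and so are up to 3 listed genes per comparison and the 3 most similar genes. Other guides are named as chosen after their values were seen. No guide was named as non-targeting, and no plasmid pool or library from before the drug was used here.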

Additional observations from a re-analysis of the deposited data

How the results depend on the processing

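No member gene passed the threshold under any of the settings tried, and 971 alternative values of the results kept their direction and side of the threshold, 67 turned direction, 18 counts moved and 3 guide values passed. With the replicate block, which pairs libraries by number, edgeR called 1 of all genes at 1500 against 0 µM and 1 over the dose step, against 0 without it, and 0 member genes or guides. DESeq2 called 1 of all genes at 1500 against 0 µM, 1 at 1500 against 200 µM and 2 over the dose step. With the replicate block it called 3, 24 and 15 genes there and 1 at 200 against 0 µM. It then called 6 guides at 1500 against 0 µM, 6 at 200 against 0 µM, 43 at 1500 against 200 µM and 6 over the dose step, with 1 member guide in each but the second: PELI3.10 (-2.92, and -1.55 per step) and TNFAIP3.9 (1.39). DESeq2 with the block gave an adjusted p to 4926 guides at 1500 against 200 µM.

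Direction at 1500 against 0 µM turned for TAB2 on library totals (-0.10), for TNIP2 without its most abundant guide (0.042), and for PELI2 without its most abundant guide (0.27), with the replicate block (0.019) and with DESeq2 and the block (0.0072). At 200 against 0 µM it turned for TAB2, RIPK1, PELI3 and TRAF6 as medians of guides (-0.032, -0.077, 0.0027 and -0.31), for TNIP2, TRAF6 and RBCK1 without the most abundant guide (0.19, -0.16 and 0.097), for TRAF6 with the replicate block (-0.0061), and for RNF31.5 with the block in edgeR (0.094) and in DESeq2 (0.19). In an alternative chosen after seeing the data, the sum without the most abundant guide with the replicate block, TNIP2 (0.026) and PELI2 (0.30) turned at 1500 against 0 µM, and TNIP2 (0.16), TRAF6 (-0.20) and RBCK1 (0.10) at 200 against 0 µM. The causes were not tested.

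Each library was left out in turn in fits without the replicate block, so its same-numbered partner stayed in. Replicate number held a median of 86.9% of the variance of the 10 genes' log2 levels. A turn in direction could therefore not be told apart from that imbalance between replicate numbers. In these fits the direction of every member gene turned at least once. Log2 fold changes then ranged at 1500 against 0 µM as TAB2 -0.17 to 0.24, RIPK1 -0.35 to 0.27, TNIP2 -0.58 to 0.19, PELI1 -0.24 to 0.52, PELI2 -0.35 to 0.45, PELI3 -0.54 to 0.22, TRAF6 -0.40 to 0.22, RNF31 -0.72 to 0.14, RBCK1 -0.36 to 0.11, TNFAIP3 -0.97 to 0.32, and at 200 against 0 µM as TAB2 -0.028 to 0.43, RIPK1 -0.15 to 0.50, TNIP2 -0.35 to 0.33, PELI1 -0.28 to 0.44, PELI2 -0.053 to 0.78, PELI3 -0.52 to 0.24, TRAF6 -0.32 to 0.44, RNF31 -0.73 to 0.20, RBCK1 -0.31 to 0.15, TNFAIP3 -0.65 to 0.42. TNFAIP3 ranged -0.46 to 0.14 per dose step, and PELI2 -0.60 to -0.015 at 1500 against 200 µM. Guides that turned were TAB2.7 (-0.076 to 0.71), TNIP2.9 (-1.55 to 0.59), PELI3.10 (-3.79 to 0.16) and RNF31.5 (-2.74 to 2.55) at 200 against 0 µM, RBCK1.8 (-1.39 to 0.40) at 1500 against 0 µM, and TNFAIP3.9 (-0.64 to 3.52) at 1500 against 200 µM. Among guides that kept their direction, values moved by over 1.5 times for PELI1.8 (0.076 to 0.94), PELI3.10 (-5.32 to -0.62), RIPK1.4 (-1.08 to -0.41), RNF31.3 (-0.94 to -0.32), TAB2.4 (-0.92 to -0.39), TNFAIP3.10 (-2.09 to -0.19), TRAF6.4 (-2.02 to -0.38) at 1500 against 0 µM, and PELI1.6 (0.87 to 2.55), RBCK1.9 (0.36 to 1.24), RIPK1.10 (-0.62 to -0.21), TNFAIP3.1 (1.19 to 2.43), TRAF6.4 (-1.41 to -0.053) at 200 against 0 µM, and PELI3.10 (-2.71 to -0.35) per dose step. With 1 library left out, 0 genes and 0 guides were called in any comparison. Guides near the floor of 3 counts, such as TNIP2.10 at 1500 µM, have a bound in place of a fold change.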
